A study of Homo sapiens with 18 samples.

Results

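MDM2, BCL2L1, BAX, XAF1 and AIFM1 are 5 genes of cell death and p53 control. They were taken as the rows of the deposited table whose single platform gene symbol was one of these names, and each had 1 such row among 14232 genes with a row of their own. RNA came from U251-MG, an established human astrocytoma line, and was measured on 18 Affymetrix exon arrays, 3 biological replicates in each of 6 groups. The stressed groups were a TIAR RIP, a G3BP1 RIP and input from cells given 500 µM arsenite, with RNA taken after 30 min, and the unstressed groups were the same 3 RNA samples from cells given DMSO for 30 min. A RIP is the RNA recovered with an antibody to an RNA-binding protein, here TIAR (labelled Tial, after the gene TIAL1) or G3BP1, both proteins of stress granules. Input is the RNA before immunoprecipitation. A RIP with a control antibody was not analysed here, so recovery by the antibody and recovery by the procedure cannot be told apart. All groups share 1 cell line.

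Arsenite stops most translation, and stalled mRNAs then gather with TIAR, G3BP1 and other proteins in stress granules. Mitochondrial apoptosis is decided by the BCL2 family: BAX opens pores in the outer mitochondrial membrane, and the long protein of BCL2L1, BCL-xL, holds it in check. Past that step AIFM1 and cytochrome c leave the mitochondria, caspases are released from XIAP, which XAF1 binds and opposes, and p53, kept low by the ubiquitin ligase MDM2, can switch on several of these genes.

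MDM2 is itself a p53 target, and p53 acts at its second promoter. Promoter windows of 300 bases, from 250 before to 50 after a transcript start, were read from RefSeq on GRCh38.p14, and all 5 genes matched, with 10 windows between them. The p53 consensus site, 2 half-sites of 10 bases with no spacer and at most 2 mismatches, was searched on both strands, which are the same for this symmetric motif. It was found in 2 of the 10 windows, both at the second MDM2 start and overlapping, against 0.649% of 35116 windows of all genes. The other 4 genes had no match in these windows, which says only that these letters are not there. Sites with more than 2 mismatches were not searched for, so the lower-case bases of the stretch below may hold such a site. The stretch around the MDM2 match is shown because it holds the only match among the members' windows, with the matched site in capitals, at chr12:68808883-68808982 on the plus strand of GRCh38.p14, and the arrays do not bear on whether p53 was bound there.
MDM2 second promoter: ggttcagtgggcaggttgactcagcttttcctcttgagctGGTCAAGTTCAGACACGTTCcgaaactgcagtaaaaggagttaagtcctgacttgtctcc

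The values are log2 signals after RMA, and 1 unit is a doubling. Each is 1 summary of a transcript cluster, so splice forms such as BCL-xL and the shorter BCL-xS were not separated, and signals of different genes are not compared with each other. Array medians ran from 7.73 to 8.07. Replicate 1 of stressed input had a mean correlation with its group of 0.980 (0.985 and 0.985 for the others) and a median of 7.73 (7.90 and 7.92). Replicate 3 of the unstressed G3BP1 RIP had a correlation of 0.980 (0.988 and 0.987) and a median of 7.80 (8.04 and 8.05). Both arrays are said here to stand apart from their groups, by small gaps in correlation and by lower medians. For all 5 members the unstressed G3BP1 RIP had its lowest array in replicate 3, and stressed input its lowest in replicate 1, so many of the member results in these groups are also given without both arrays. Of 13 astrocyte and glioma markers with a row, 9 lay above the median row, among them VIM (12.95 in unstressed input), CD44 (11.71) and GFAP (8.45). S100B (5.20) and AQP4 (4.78) lay below the lower quartile of row means (6.29). Of the other lists, the neuronal gene NEFL (13.35) and the keratin genes KRT8 (11.96) and KRT18 (10.92) were bright, while PTPRC (3.61), EPCAM (3.47) and HBB (6.48) were dim. With arsenite 4 of the 13 astrocyte markers were called higher and 0 lower in the TIAR RIP and in input, and 2 higher and 0 lower in the G3BP1 RIP. Of all rows 6.15% were higher in the TIAR RIP, 2.52% in input and 10.4% in the G3BP1 RIP, and 5.71%, 11.2% and 4.08% lower. TNC was called in all 3 (1.26 in the TIAR RIP, 1.04 in the G3BP1 RIP, 0.90 in input). Of 5 myeloid genes with a row CD68 alone was called, higher in all 3 (1.08, 0.83 and 0.36 in the same order). In the other lists KRT18 (0.51 in the TIAR RIP), KRT8 (0.45 in input) and SYT1 (0.46 in the G3BP1 RIP) were called higher, and 0 lower. The part of these markers in the member results was not tested. RIP and input values describe the make-up of each RNA sample, not the amount an antibody recovered, and in bulk RNA fewer cells with a transcript and less of it per cell cannot be told apart. A change is called where the adjusted p of the limma test (Benjamini-Hochberg, 22011 rows) was under 0.05.

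In the TIAR RIP, arsenite lowered MDM2, BCL2L1 and BAX and raised AIFM1. In input MDM2 and BCL2L1 fell, and in the G3BP1 RIP AIFM1 fell. In the TIAR RIP 1 of the 5 members was called higher and 3 lower, where 11.9% of all rows were called, 6.15% higher and 5.71% lower. For G3BP1 0 were called higher and 1 lower, with 14.5% of all rows called, 10.4% higher and 4.08% lower. For input 0 were called higher and 2 lower, with 13.7% of all rows called, 2.52% higher and 11.2% lower. After median centring, rows called higher were 2462 of 4221 in the G3BP1 RIP and 1255 of 3662 in input, against 2290 of 3189 and 554 of 3026 as deposited. The members were chosen with results of these data known, so the counts carry no test of their own.

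**Figure D1:**
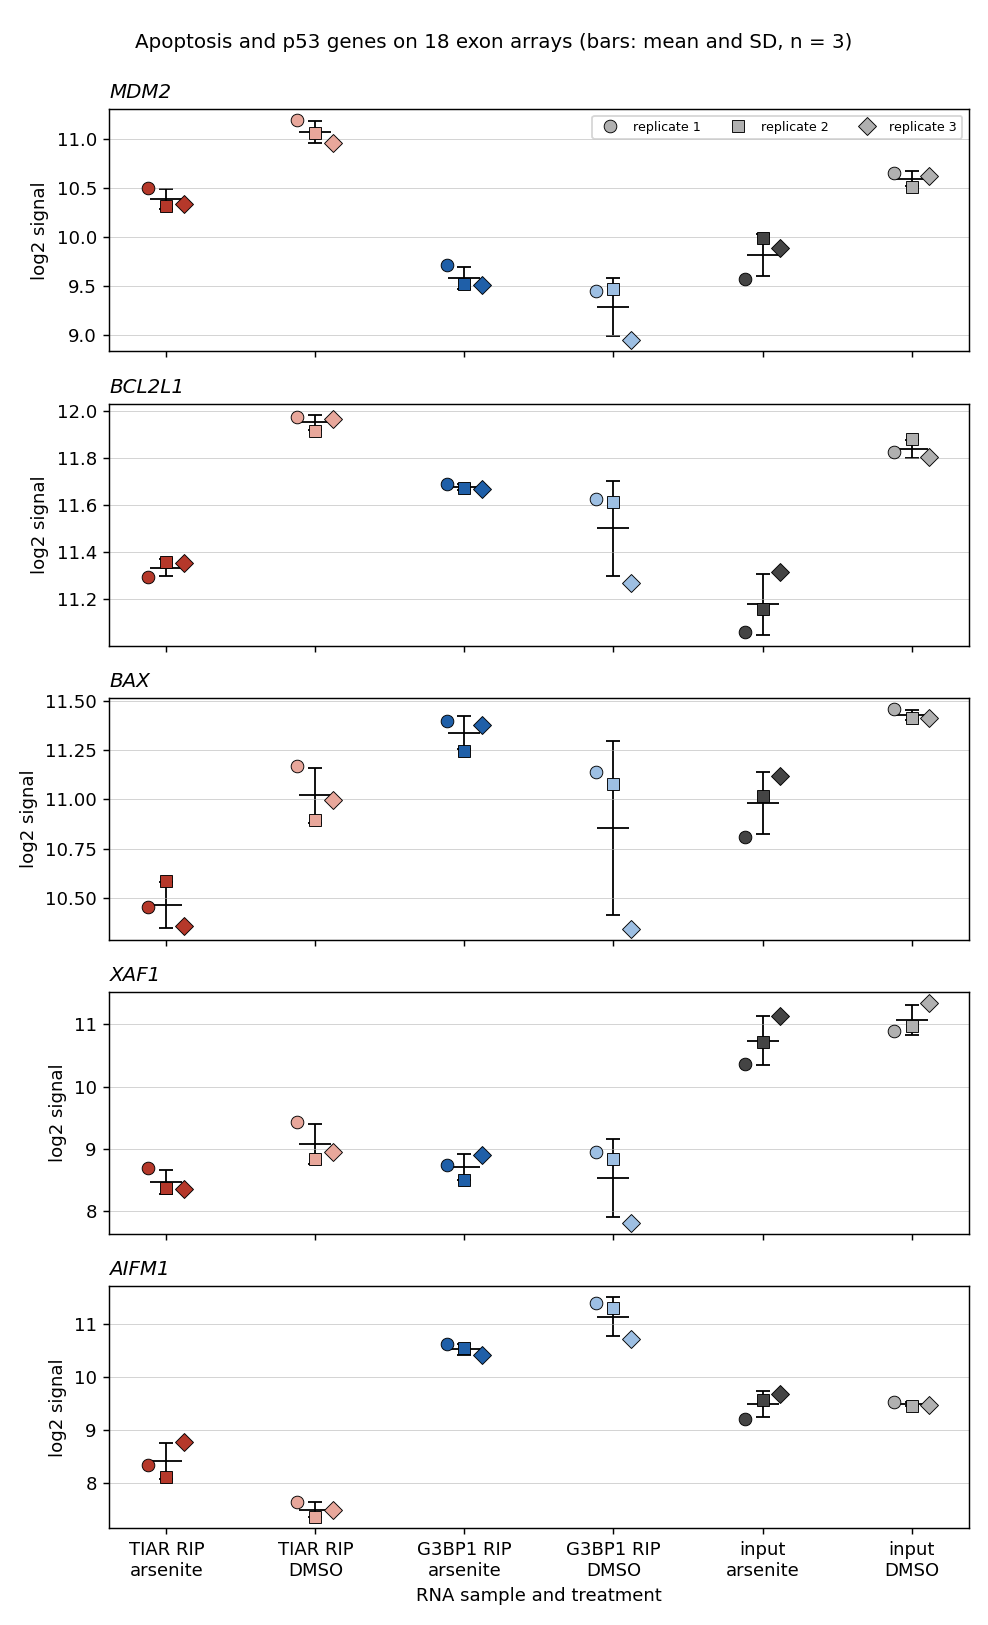
Log2 signal (vertical axes, separate scales) of MDM2, BCL2L1, BAX, XAF1 and AIFM1 in the 6 groups (horizontal axis), with a point per array and the mean and SD of 3 arrays. MDM2 and BCL2L1 sit lower with arsenite in the TIAR RIP and in input, XAF1 is low in all 4 RIP groups, and AIFM1 runs from 7.49 in the unstressed TIAR RIP to 11.15 in the unstressed G3BP1 RIP.

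MDM2, the ubiquitin ligase that marks p53 for degradation, had log2 signals of 10.50, 10.32 and 10.34 in the stressed TIAR RIP, against 11.19, 11.06 and 10.96 in the unstressed TIAR RIP. In stressed input it had 9.58, 9.99 and 9.89, against 10.65, 10.51 and 10.62 in unstressed input. In both RNA samples all 3 stressed arrays lay under all 3 unstressed arrays. In the TIAR RIP the stress change was -0.69 ± 0.14 (SE), a level 0.622 times that of unstressed cells (adjusted p = 0.00365). It was -0.78 ± 0.14 for total RNA (adjusted p = 0.00173), or -0.66 without both arrays that stand apart (adjusted p = 0.000285). The stress change in the TIAR RIP minus that in input was 0.09 ± 0.19, with an unadjusted 95% interval of -0.32 to 0.51 (adjusted p = 0.882), and -0.029 without both arrays. MDM2 thus fell in the TIAR RIP with no difference from its fall in total RNA that the test could detect.

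The G3BP1 RIP differed. MDM2 had 9.72, 9.52 and 9.51 in the stressed G3BP1 RIP, against 9.44, 9.47 and 8.95 in the unstressed G3BP1 RIP. The stressed arrays lay just above the unstressed ones, and most of the gap came from unstressed replicate 3. The stress change was 0.29 ± 0.14 (adjusted p = 0.195), or 0.12 without both arrays that stand apart (adjusted p = 0.387). It was called at 0.21 after quantile normalization (adjusted p = 0.0338) and at 0.22 after cyclic loess (adjusted p = 0.0497). The stress change in the G3BP1 RIP exceeded that in input by 1.07 ± 0.19 (adjusted p = 0.00154), and by 0.78 without both arrays (adjusted p = 0.000836). The change in the TIAR RIP lay below that in the G3BP1 RIP by -0.98 ± 0.19 (adjusted p = 0.00342), or -0.81 without both arrays.

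Set against input, MDM2 was higher in the TIAR RIP both with stress (0.57 ± 0.14, adjusted p = 0.00332) and without (0.48 ± 0.14, adjusted p = 0.0111; 0.0507 without unstressed TIAR replicate 1). In the G3BP1 RIP it was lower than input without stress, by -1.31 ± 0.14 (adjusted p = 2.12e-06), or -1.14 without both arrays. With stress that difference was -0.23 ± 0.14 and was not called (adjusted p = 0.185), though it was at -0.35 without both arrays (adjusted p = 0.00529) and at -0.40 after median centring (adjusted p = 0.00269). The direct comparison of the RIPs gave 0.80 ± 0.14 with stress (adjusted p = 0.000163) and 1.78 ± 0.14 without (adjusted p = 3.07e-08), TIAR minus G3BP1. From high to low, the group means ran from the unstressed TIAR RIP through unstressed input, the stressed TIAR RIP, stressed input and the stressed G3BP1 RIP to the unstressed G3BP1 RIP. Of these neighbours only stressed input and the stressed G3BP1 RIP overlapped in their arrays.

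BCL2L1 encodes the survival protein BCL-xL, which binds BAX and BH3-only proteins at the mitochondrial membrane. It had 11.29, 11.36 and 11.35 in the stressed TIAR RIP, against 11.98, 11.92 and 11.97 in the unstressed TIAR RIP. It had 11.06, 11.16 and 11.31 in stressed input, against 11.83, 11.88 and 11.81 in unstressed input. As with MDM2, neither pair of groups overlapped. The difference was -0.62 ± 0.09 with TIAR (adjusted p = 0.000384) and -0.66 ± 0.09 for total RNA (adjusted p = 0.000309). The stress change in the TIAR RIP minus that in input was 0.04 ± 0.13, with an unadjusted 95% interval of -0.24 to 0.32 (adjusted p = 0.927), and -0.019 without both arrays. The fall in total RNA was then -0.60 (adjusted p = 2.75e-05).

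BCL2L1 in the G3BP1 RIP held 11.69, 11.67 and 11.67 with stress, against 11.62, 11.61 and 11.27 without. The stressed arrays were nearly equal, and unstressed replicate 3 lay far under its group. The stress change was 0.18 ± 0.09 (adjusted p = 0.253), or 0.06 without both arrays (adjusted p = 0.539). Beside the fall in input, the change in the G3BP1 RIP was higher by 0.84 ± 0.13 (adjusted p = 0.000493), or by 0.66 without both arrays (adjusted p = 0.000131). The change in the TIAR RIP minus that in the G3BP1 RIP was -0.80 ± 0.13 (adjusted p = 0.000839).

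BCL2L1 was thereby higher than input in the stressed G3BP1 RIP (0.50 ± 0.09, adjusted p = 0.000363; 0.44 without both arrays) and lower than input in the unstressed one (-0.34 ± 0.09, adjusted p = 0.00798). The second value was -0.22 without both arrays (adjusted p = 0.00664) and lost its call when only the groups compared were fitted (adjusted p = 0.0932). The TIAR RIP minus input was not called, at 0.16 ± 0.09 with stress (adjusted p = 0.187) and 0.12 ± 0.09 without (adjusted p = 0.361). Median centring brought these to 0.21 (adjusted p = 0.012) and 0.29 (adjusted p = 0.00149), both called. Between the RIPs the sign turned with stress: TIAR minus G3BP1 was -0.34 ± 0.09 with arsenite (adjusted p = 0.00567; -0.12 and adjusted p = 0.136 after median centring) and 0.45 ± 0.09 without (adjusted p = 0.000637). The group means spanned 0.78 on the log2 scale, from the unstressed TIAR RIP down to stressed input. The 2 unstressed groups at the top of that order did not overlap with each other, while the unstressed G3BP1 RIP, the stressed TIAR RIP and stressed input at its lower end overlapped in turn.

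BAX encodes the protein that oligomerises into the outer membrane pore, and it is also a known p53 target. It had 10.45, 10.58 and 10.36 in the stressed TIAR RIP, against 11.17, 10.90 and 10.99 in the unstressed TIAR RIP. All stressed arrays lay under all unstressed ones. The change was -0.56 ± 0.16 (adjusted p = 0.0373), a call close to the threshold that was lost in 10 of the 18 fits without 1 array, the highest adjusted p being 0.145 without unstressed TIAR replicate 1. In input BAX had 10.81, 11.02 and 11.12 with stress, against 11.46, 11.41 and 11.42 without. These groups did not overlap either, but the change of -0.45 ± 0.16 was not called (adjusted p = 0.0873), and it was at -0.36 without both arrays (adjusted p = 0.0116).

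The stress change of BAX had the opposite sign in the G3BP1 RIP. BAX had 11.40, 11.24 and 11.38 in the stressed G3BP1 RIP, against 11.14, 11.08 and 10.34 in the unstressed one. The groups did not overlap, and the unstressed SD of 0.44 came from replicate 3. The change was 0.48 ± 0.16 (adjusted p = 0.0621), or 0.23 without both arrays (adjusted p = 0.0795), and it was called after median centring (0.43, adjusted p = 0.0213). It exceeded the input change by 0.93 ± 0.23 (adjusted p = 0.0115), or by 0.59 without both arrays (adjusted p = 0.00424). The TIAR change minus the G3BP1 change was -1.04 ± 0.23 (adjusted p = 0.00698), or -0.79 without both arrays (adjusted p = 0.000344). Against input, BAX was lower in the stressed TIAR RIP (-0.52 ± 0.16, adjusted p = 0.0178) and in the unstressed G3BP1 RIP (-0.58 ± 0.16, adjusted p = 0.0102). The TIAR call was lost without replicate 3 of either group (adjusted p = 0.067 and 0.0654), and the G3BP1 one with only its groups in the fit (adjusted p = 0.0956), though it held at -0.32 without both arrays (adjusted p = 0.00826). The other 2 differences from input were not called, -0.41 ± 0.16 in the unstressed TIAR RIP (adjusted p = 0.0589) and 0.36 ± 0.16 in the stressed G3BP1 RIP (adjusted p = 0.0904). Both were called without both arrays, at -0.41 (adjusted p = 0.000643) and 0.27 (adjusted p = 0.0224). In the stressed cells TIAR minus G3BP1 was -0.87 ± 0.16 (adjusted p = 0.000351), and in the unstressed cells 0.17 ± 0.16 (adjusted p = 0.452), or -0.09 without both arrays and 0.35 after median centring (adjusted p = 0.024). The group means of BAX ran from unstressed input down to the stressed TIAR RIP and spanned 1.95-fold. Below unstressed input and the stressed G3BP1 RIP, each group overlapped with the next in that order.

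**Figure D2:**
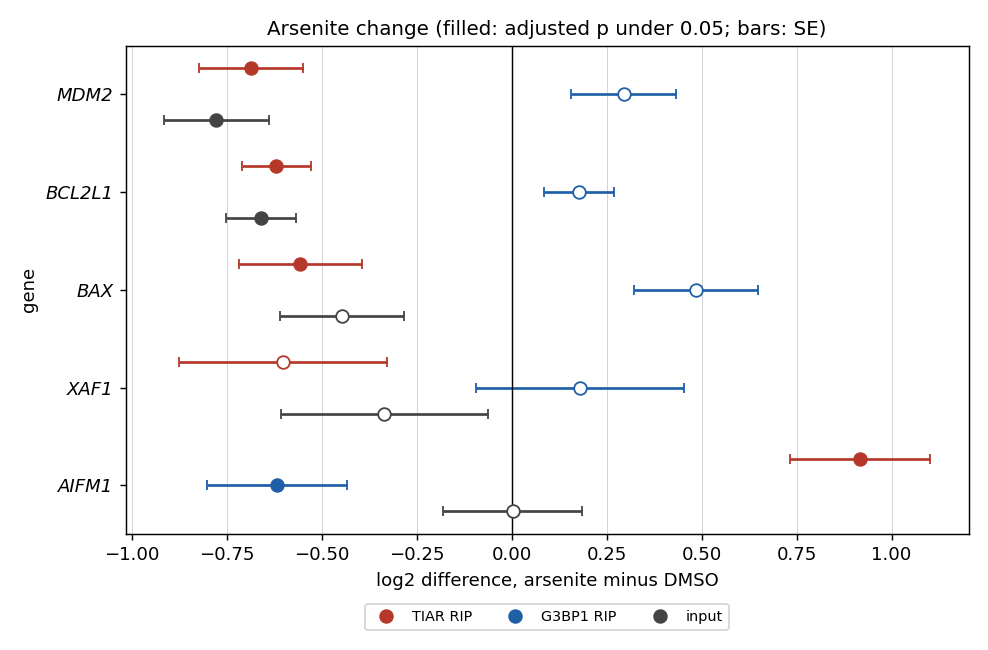
Log2 difference of arsenite minus DMSO (horizontal axis, bars SE) of the 5 genes (vertical axis) in the TIAR RIP, the G3BP1 RIP and input, with filled points where the adjusted p was under 0.05. MDM2, BCL2L1 and BAX lie between -0.78 and -0.45 in the TIAR RIP and input and between 0.18 and 0.48 in the G3BP1 RIP, while AIFM1 lies at 0.92 in the TIAR RIP and -0.62 in the G3BP1 RIP.

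XAF1, whose interferon-inducible protein binds XIAP and opposes its hold on caspases, was lower in both RIPs than in input, and no arsenite change of it was called in the fit to all arrays. It had 8.70, 8.38 and 8.35 in the stressed TIAR RIP and 8.74, 8.50 and 8.91 in the stressed G3BP1 RIP, against 10.36, 10.72 and 11.14 in stressed input. It had 9.44, 8.83 and 8.96 in the unstressed TIAR RIP and 8.95, 8.84 and 7.81 in the unstressed G3BP1 RIP, against 10.90, 10.98 and 11.34 in unstressed input. Every RIP array lay below every input array. With stress the difference from input was -2.26 ± 0.27 for TIAR (0.208-fold, adjusted p = 7.41e-06) and -2.02 ± 0.27 for G3BP1 (0.246-fold, adjusted p = 2.27e-05). Without stress it was -2.00 ± 0.27 for TIAR (adjusted p = 2.37e-05) and -2.54 ± 0.27 for G3BP1 (adjusted p = 2.65e-06). Without both arrays that stand apart these 4 differences ran from -2.45 to -2.00.

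The size of these differences was reached or passed by 0.85%, 1.29%, 2.66% and 0.872% of all rows in the stressed TIAR, stressed G3BP1, unstressed TIAR and unstressed G3BP1 comparisons with input. Between the RIPs neither difference was called, at -0.24 ± 0.27 with stress (adjusted p = 0.532) and 0.54 ± 0.27 without (adjusted p = 0.123), TIAR minus G3BP1. The second was called after median centring, quantile normalization and cyclic loess (0.69 to 0.84), and was 0.18 without both arrays (adjusted p = 0.491). Stress changes of XAF1 were -0.60 ± 0.27 with TIAR (adjusted p = 0.21), 0.18 ± 0.27 with G3BP1 (adjusted p = 0.78) and -0.33 ± 0.27 for total RNA (adjusted p = 0.487), and the 3 differences between these changes ran from -0.78 to 0.51 with adjusted p of 0.238 or more. The TIAR value was called without both arrays (adjusted p = 0.0268) at the same value of -0.60, and the G3BP1 value was then -0.18 (adjusted p = 0.6). In the order of XAF1 means, all neighbours overlapped except stressed input and, below it, the unstressed TIAR RIP. XAF1 had the largest standard error of the members, and its 95% interval in input, -0.92 to 0.25, holds changes as large as that of MDM2.

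AIFM1 encodes a flavoprotein between the mitochondrial membranes that supports assembly of the respiratory chain and, once released, moves to the nucleus and takes part in DNA breakdown without caspases. It had 8.34, 8.10 and 8.78 in the stressed TIAR RIP and 10.62, 10.55 and 10.42 in the stressed G3BP1 RIP, against 9.22, 9.57 and 9.68 in stressed input. It had 7.63, 7.35 and 7.49 in the unstressed TIAR RIP and 11.41, 11.31 and 10.73 in the unstressed G3BP1 RIP, against 9.53, 9.46 and 9.47 in unstressed input. The 3 RNA samples did not overlap in either state, with TIAR below input and G3BP1 above it. TIAR minus G3BP1 was -3.66 ± 0.18 without stress, a 12.6-fold difference (adjusted p = 3.15e-10; -3.87 without both arrays), and -2.12 ± 0.18 with stress (adjusted p = 1.57e-07). Only 0.214% of all rows differed as much between the unstressed RIPs.

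Arsenite moved AIFM1 in opposite directions in the RIPs. With TIAR it rose by 0.92 ± 0.18, a 1.89-fold change (adjusted p = 0.00369). In the G3BP1 RIP it fell by 0.62 ± 0.18 on the log2 scale (adjusted p = 0.0348), or by 0.83 without both arrays (adjusted p = 0.00132). Neither pair of groups overlapped, but the call in the G3BP1 RIP was lost without any 1 of 5 of its arrays (adjusted p from 0.0672 to 0.134) and with only these groups in the fit (adjusted p = 0.138). In input the groups overlapped and the change was 0.002 ± 0.18 (adjusted p = 0.996), with a 95% interval of -0.39 to 0.40. The TIAR change minus the G3BP1 change was 1.54 ± 0.26 (adjusted p = 0.00114), or 1.75 without both arrays (adjusted p = 5.49e-05). The change beyond that of total RNA was called neither for TIAR (0.92 ± 0.26, adjusted p = 0.133; 0.0348 without unstressed G3BP1 replicate 3) nor for G3BP1 (-0.62 ± 0.26, adjusted p = 0.126). The G3BP1 value was called without both arrays (-0.97, adjusted p = 0.00532) and under each of the 3 scalings (-0.99 to -0.77).

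The measured distance of AIFM1 from input was smaller with stress on both sides, in differences that were not called. With TIAR it was -1.08 ± 0.18 with stress (adjusted p = 0.000193) and -2.00 ± 0.18 without (adjusted p = 4.15e-07). With G3BP1 it was 1.04 ± 0.18 with stress (adjusted p = 0.000276) and 1.66 ± 0.18 without (adjusted p = 3.54e-06), or 0.90 and 1.87 without both arrays. The tests of these 2 shifts are those of the stress changes beyond total RNA given above.

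**Figure D3:**
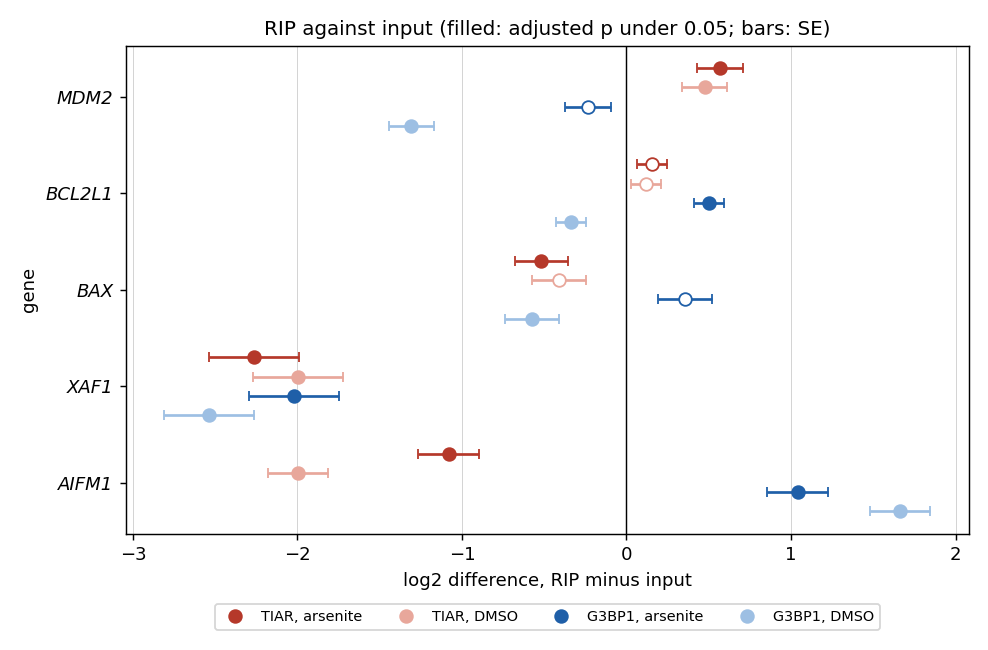
Log2 difference of RIP minus input (horizontal axis, bars SE) of the 5 genes (vertical axis) for the TIAR and G3BP1 RIPs with arsenite and with DMSO, with filled points where the adjusted p was under 0.05. XAF1 lies at -2.00 or below in all 4, AIFM1 lies below 0 for TIAR and above 0 for G3BP1, and MDM2 and BCL2L1 lie farther right for G3BP1 with arsenite than with DMSO.

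Over all comparisons the members' calls can be set beside those of all rows. In the stressed TIAR RIP 1 member was higher and 3 were lower than in input, with 43.8% of all rows called, 20.3% higher and 23.5% lower. Without stress TIAR gave 1 higher and 2 lower, with 40.6% of all rows called, 16.8% higher and 23.8% lower. In the stressed G3BP1 RIP 2 were higher and 1 was lower than in input, with 44.4% of all rows called, 29.3% higher and 15.2% lower. Without stress G3BP1 gave 1 higher and 4 lower, so that all 5 were called, with 39.8% of all rows called, 20.7% higher and 19.2% lower. TIAR minus G3BP1 had 1 higher and 3 lower with stress (44.3% of all rows, 15.6% higher and 28.7% lower) and 2 higher and 1 lower without (46.8%, 19.3% higher and 27.5% lower). After median centring, rows called higher were 5443 of 11139 in stressed G3BP1 minus input, 5556 of 9757 in unstressed TIAR minus input, 6084 of 11154 in stressed and 5942 of 10928 in unstressed TIAR minus G3BP1.

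The stress change in the TIAR RIP differed from that in input for 0 members by limma, with 0.654% of all rows called, 0.604% higher and 0.05% lower, and AIFM1 alone had an unadjusted p under 0.05. In the G3BP1 RIP it differed for 3, all higher, with 16.9% of all rows called, 14.3% higher and 2.65% lower. Of all rows called in that contrast 3137 of 3721 were higher, and 2845 of 4320 after median centring. Between the RIPs it was higher in TIAR for 1, AIFM1, and lower for 3 (13.6% of all rows, 5.05% higher and 8.55% lower), and rows called higher were 2044 of 4116 after cyclic loess, against 1112 of 2994. Median centring gave a median over all rows of -0.11 (0.05 before it) for the G3BP1 change beyond input, -0.05 (0.06 before) for the TIAR change beyond input, and 0.17 (-0.05 before) for stressed TIAR minus G3BP1, so the members' values are relative to such shifts. Of 36 called values of members over the 12 comparisons, 0 changed sign in 108 refits under the 3 other scalings and 1 lost its call.

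A wider list of 69 apoptosis and p53 genes was set beside the members, and 55 of them, the 5 members included, had a row of 1 symbol, while the other 14 were not analysed here. In input 0 of the 55 rose with arsenite and 9 fell (2 and 7 after median centring), with 2.52% of all rows higher and 11.2% lower, and the list median was -0.28 against -0.03 for all rows. In the TIAR RIP 1, AIFM1, rose and 8 fell (1 and 14 after median centring), with 6.15% of all rows higher and 5.71% lower, and the median was -0.11 against -0.0035. For G3BP1 5 rose and 3 fell (6 and 4 after median centring, 9 and 3 after cyclic loess), with 10.4% of all rows higher and 4.08% lower, and the median was 0.10 against 0.01. The stress change in the TIAR RIP differed from that in input for 0 of the 55 by limma, with 0.654% of all rows called, and 8 of the 55 had an unadjusted p under 0.05. Without both arrays that stand apart it differed for 2, both lower. With those 2 arrays left out, 1 rose and 14 fell in input, 3 rose and 19 fell with TIAR, and 4 rose and 9 fell with G3BP1. After median centring, rows called higher were 1806 of 3725 in the TIAR RIP, 1255 of 3662 in input and 2462 of 4221 in the G3BP1 RIP. After cyclic loess they were 2630 of 4483 in the G3BP1 RIP. The percentages of all rows given above come from the fit to all arrays as deposited, and those without the 2 arrays are not given. Whether the list gained calls beyond the gain of all rows was therefore not tested.

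**Figure D4:**
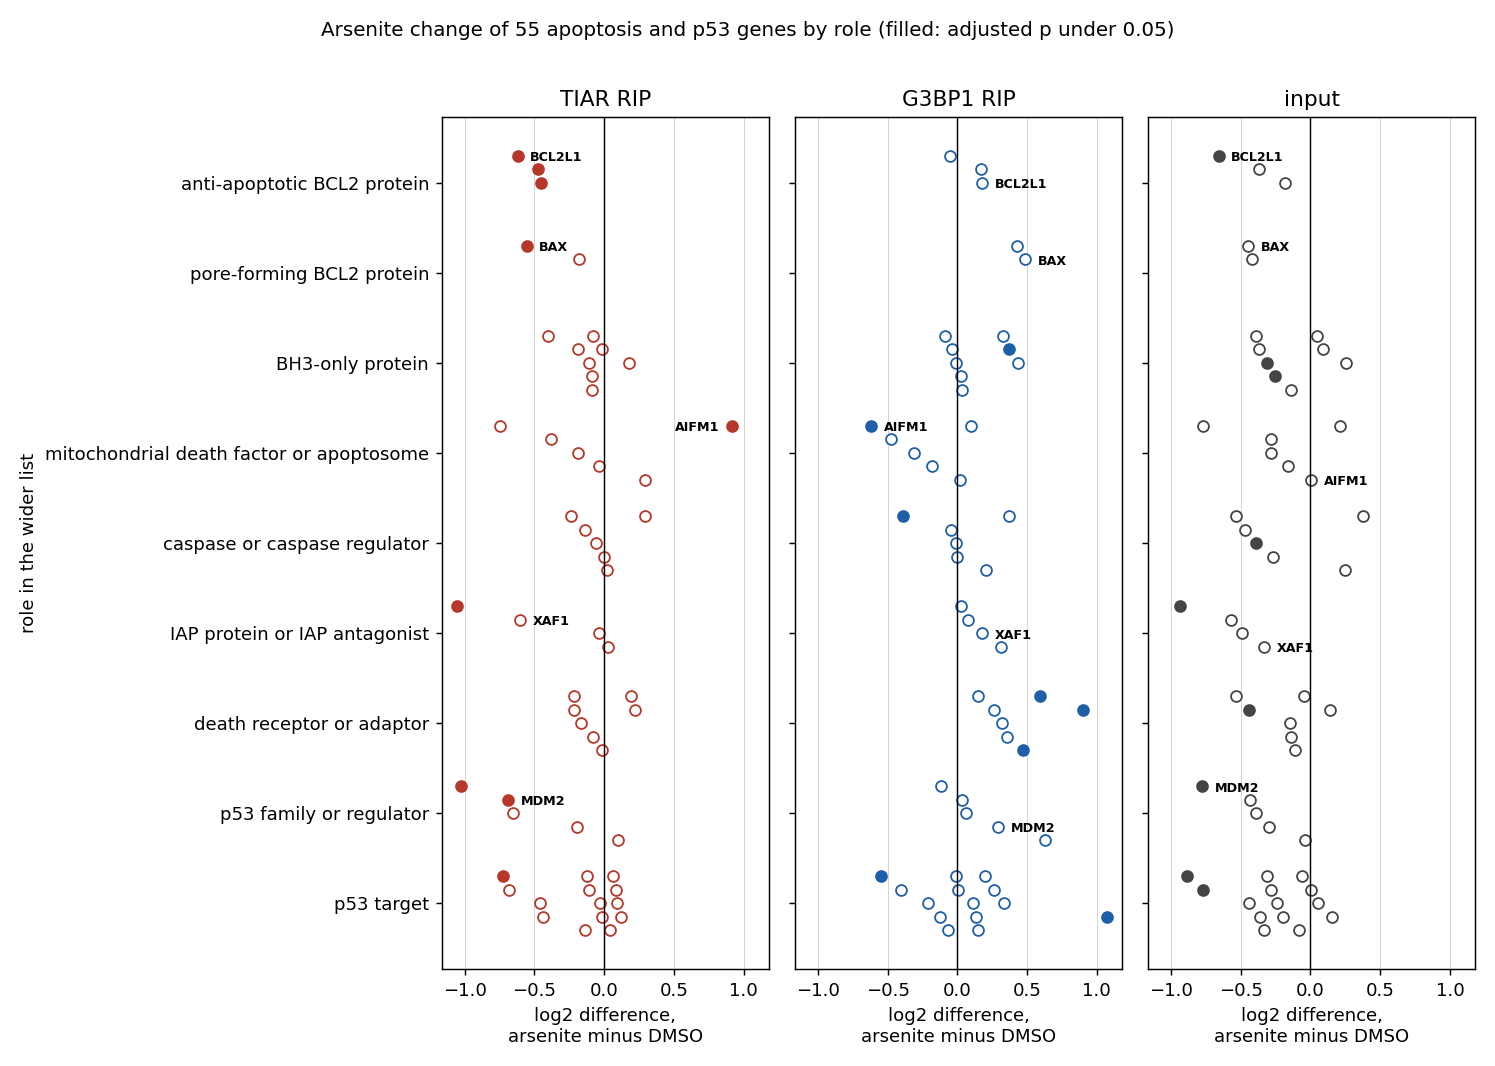
Log2 difference of arsenite minus DMSO (horizontal axes) of the 55 genes of the wider list, a point per gene, grouped by role (vertical axis) in the TIAR RIP, the G3BP1 RIP and input, with filled points where the adjusted p was under 0.05 and the members named. All 3 anti-apoptotic BCL2 genes with a row lie below 0 in the TIAR RIP, and the filled death receptor genes in the G3BP1 RIP lie above 0.

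XIAP, the caspase inhibitor that XAF1 binds, had the largest called fall of the list with TIAR (-1.06 ± 0.19, adjusted p = 0.00166) and in total RNA (-0.94 ± 0.19, adjusted p = 0.00438). It had 8.24, 8.17 and 8.46 in the stressed TIAR RIP, against 9.51, 9.29 and 9.24 in the unstressed one, so that the groups did not overlap. Its change in the G3BP1 RIP was 0.08 ± 0.19 (adjusted p = 0.881), and -0.18 without both arrays that stand apart (adjusted p = 0.297). ZMAT3, a p53 target that encodes a zinc finger RNA-binding protein, fell by 0.72 ± 0.20 with TIAR (adjusted p = 0.031) and by 0.89 ± 0.20 in total RNA (adjusted p = 0.00919). TP53INP1, a stress-induced p53 target, fell in the TIAR RIP (-1.02 ± 0.13, adjusted p = 0.000107) and had -0.30 ± 0.13 in input (adjusted p = 0.153; 0.0159 without both arrays), and the difference of these changes was -0.73 ± 0.18 (adjusted p = 0.0857; 0.00495 without both arrays). The survival genes BCL2 (-0.45 ± 0.08, adjusted p = 0.000964) and BCL2L2 (-0.47 ± 0.14, adjusted p = 0.0419), named here after their values were seen, fell with BCL2L1 in the TIAR RIP. There all 3 measured anti-apoptotic genes were called lower, against 5.71% of all rows. MCL1 and BCL2A1, of the same role, had no row of 1 symbol. BCL2 was dim, at 6.79 in the stressed and 7.24 in the unstressed TIAR RIP, under the median of row means (7.94). BCL2L2 lay under that median too, at 7.26 and 7.73. So did TP53INP1 in the stressed TIAR RIP (7.33) and in input (6.91 with stress, 7.21 without), but not in the unstressed TIAR RIP (8.35). XIAP lay under it in stressed input (7.01). In input BCL2 had -0.19 ± 0.08 (adjusted p = 0.123) and BCL2L2 -0.37 ± 0.14 (adjusted p = 0.102). The TIAR change minus that of input was called for neither (-0.26, adjusted p = 0.305 for BCL2 and -0.10, adjusted p = 0.875 for BCL2L2).

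In the G3BP1 RIP 3 of 7 death receptor and adaptor genes rose, 0 fell and 4 were not called, where 10.4% of all rows were higher. TNFRSF1A, the main TNF receptor, rose by 0.90 ± 0.11 (adjusted p = 8.18e-05), FAS by 0.60 ± 0.19 (adjusted p = 0.0456; 0.37 and adjusted p = 0.0512 without both arrays that stand apart) and the TRAIL receptor gene TNFRSF10B by 0.47 ± 0.13 (adjusted p = 0.0231). TNFRSF1A had 10.72, 10.59 and 10.53 in the stressed G3BP1 RIP, against 9.88, 9.86 and 9.41 in the unstressed one, so all 3 stressed arrays lay above all 3 unstressed ones. FAS was dim, at 7.44 in the stressed and 6.84 in the unstressed G3BP1 RIP, under the median of row means (7.94). EI24, a p53 target, rose in the G3BP1 RIP (1.08 ± 0.24, adjusted p = 0.00591; 0.70 without both arrays) and fell in input (-0.77 ± 0.24, adjusted p = 0.0415). GADD45A, a p53 target of the growth arrest response, fell in the G3BP1 RIP (-0.55 ± 0.15, adjusted p = 0.0231), as did CASP2, an initiator caspase gene (-0.39 ± 0.11, adjusted p = 0.0338). Among 8 BH3-only genes, BAD rose with G3BP1 (0.37 ± 0.08, adjusted p = 0.00491) and fell in total RNA (-0.31 ± 0.08, adjusted p = 0.0164), where BID fell too (-0.26 ± 0.07, adjusted p = 0.0189). With TIAR 0 of the 8 were called, where 11.9% of all rows were, and 8 genes are too few to set this apart from that share. Without both arrays PMAIP1 alone of the 8 was called there (-0.40, adjusted p = 0.00556). Total RNA also had lower FADD, the adaptor of FAS (-0.44 ± 0.10, adjusted p = 0.00706), and CASP2 (-0.39 ± 0.11, adjusted p = 0.0337; -0.25 and adjusted p = 0.0874 without both arrays). BAD, BID, FADD, this CASP2 value and this PMAIP1 value were named after their values were seen. The list's 14 further p53 targets leave out those placed under another role, such as MDM2, BAX and TP53INP1. Of the 14, 0 rose and 1 fell with TIAR, 1 rose and 1 fell with G3BP1, and 0 rose and 2 fell in total RNA. In that order the calls made up 7.14%, 14.3% and 14.3% of the 14, near the 11.9%, 14.5% and 13.7% of all rows called.

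In the stressed TIAR RIP 13 of the 55 genes were higher and 18 lower than in stressed input, with 20.3% of all rows higher and 23.5% lower. After median centring the list had 19 and 19, and 5154 of 9516 called rows were higher. In the stressed G3BP1 RIP 25 were higher and 4 lower, with 29.3% of all rows higher and 15.2% lower. That split was 23 and 13 after median centring, 23 and 16 after quantile normalization, 21 and 15 after cyclic loess and 28 and 10 without both arrays that stand apart. In the same order of scalings, rows called higher were 5443 of 11139, 5824 of 10346 and 5488 of 10554. The shares of 29.3% and 15.2% hold for the deposited scaling only, and those without both arrays are not given. BIRC6, which encodes a giant IAP protein, was higher in both (2.03 ± 0.20 in TIAR and 2.35 ± 0.20 in G3BP1). With TIAR the ribonucleotide reductase gene RRM2B (1.76 ± 0.20), ZMAT3 (1.46 ± 0.20) and XIAP (1.28 ± 0.19) followed it. With G3BP1 the apoptosome caspase gene CASP9 (1.63 ± 0.19), AIFM2 (1.18 ± 0.15) and the TRAIL receptor gene TNFRSF10A (1.17 ± 0.16) did. XAF1 was the lowest of the list in both. After it came the adaptor gene TRADD (-1.39 ± 0.18), the mitochondrial protease gene HTRA2 (-1.28 ± 0.13) and GADD45A (-1.20 ± 0.15) in the TIAR RIP. With G3BP1 they were the cytochrome c gene CYCS (-0.74 ± 0.13) and the BH3-only genes PMAIP1 (-0.49 ± 0.18) and BAD (-0.35 ± 0.08). All of these were called, with adjusted p values up to 0.0427.

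The genes whose values followed each member most closely over the 18 arrays were named by the highest Pearson correlation, given as a description since the arrays fall into 6 groups. For MDM2 they were PPP3CB (r = 0.983), TBCEL (0.982) and SNAP29 (0.982). For BCL2L1 they were DUSP3 (0.973), GNA11 (0.938) and CERK (0.937), and for BAX SRSF9 (0.981), MKNK2 (0.946) and INTS15 (0.923). XAF1 was followed by the histone genes H1-3 (0.977) and H4C3 (0.971) and by FAM204A (0.967). AIFM1 was followed most closely of all, by HARS1 (0.995), DDX27 (0.989) and STIP1 (0.989). By Spearman's rho the nearest gene was DUSP3 for BCL2L1, SRSF9 for BAX, SNAP29 for MDM2 and FAM204A for XAF1, while HARS1 ranked 12 for AIFM1.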

How the data were processed

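The authors deposited log2 signals per transcript cluster, made with RMA in Affymetrix Expression Console, per the submitters' processing notes. The version and the joint normalisation of arrays are not stated in those notes. The table holds 22011 rows, from 1.64 to 14.53. Names came from the platform table, with 1 symbol for 14432 rows (65.6%), several for 2408 and none for 5171. The brightest row by mean over 18 arrays stands for a gene.

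With limma 3.58.1 (R 4.3.3; lmFit, eBayes), 6 group means were fitted over the 18 arrays, for 12 comparisons, with 12 residual and 2.61 prior degrees of freedom. Two-sided p-values were adjusted by Benjamini-Hochberg within each comparison. The script was tested on simulated data. Errors of changes are standard errors, intervals are 95% and unadjusted, and the number of arrays limits precision. The labels call the arrays biological replicates. Deviations of same-numbered arrays had r over 0.1 in 14 of 45 pairs, among them every pair of replicate 1 between RIP groups, and -0.41 to 0.42 over all pairs, so the numbers were not taken as pairs.

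The members, the wider list and the alternatives were chosen with earlier results of these data known. Named list genes were up to 4 of the largest called changes in each direction, in the 3 arsenite comparisons and the stressed RIP comparisons with input. Alternatives were a replicate block, only the compared groups in the fit, an intensity trend and robust prior together, array weights, dropping the lowest 25% of rows, 3 other scalings (median centring, quantile normalization, cyclic loess), and leaving out arrays.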

Additional observations from a re-analysis of the deposited data

Results flagged for a closer look

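The results below were picked out because the arsenite change differed between 2 RNA samples by the interaction test, with n = 3 arrays per group. They are all members and wider-list genes with an adjusted p under 0.05 by limma, given as log2 differences.

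The change in the G3BP1 RIP minus that in input was positive for MDM2 (1.07), BAX (0.93) and BCL2L1 (0.84). It was positive as well for the list genes EI24 (1.85), XIAP (1.01), ZMAT3 (1.00), TNFRSF1A (0.94), TRADD (0.88), BAK1 (0.85), CASP9 (0.84), PMAIP1 (0.83), BCL2L11 (0.70), BAD (0.68), TNFRSF10B (0.62), FADD (0.59) and BID (0.29). Both groups that hold an array standing apart enter this difference, and all rows called higher in it made up 14.3%. Without both arrays the values were 0.78 for MDM2, 0.59 for BAX and 0.66 for BCL2L1, all called. Those of XIAP (0.58), ZMAT3 (0.57) and BAK1 (0.51) shrank by more than 1.5 times and were called, and those of CASP9 (0.40, adjusted p = 0.0601), PMAIP1 (0.41, adjusted p = 0.059), BCL2L11 (0.43, adjusted p = 0.0742) and TNFRSF10B (0.38, adjusted p = 0.0769) were not. The list had 16 higher and 0 lower with all arrays, and 13 higher and 4 lower without both, where the share of all rows is not given.

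The change in the TIAR RIP minus that in the G3BP1 RIP was positive for AIFM1 (1.54) and negative for BAX (-1.04), MDM2 (-0.98) and BCL2L1 (-0.80). It was negative as well for EI24 (-1.76), MDM4 (-1.28), XIAP (-1.13), TNFRSF1A (-1.12), TP53INP1 (-1.08), PMAIP1 (-0.84), BCL2L2 (-0.64), TNFRSF10B (-0.64), BCL2 (-0.40) and BAD (-0.38). Without both arrays BCL2L2 was not called (-0.48, adjusted p = 0.0561). The list then had 3 higher and 13 lower, where the share of all rows is not given. With all arrays it had 1 and 13, with 5.05% of all rows higher and 8.55% lower. BAK1, BCL2L11 and MDM4 were named here after their values were seen. Groups of 3 arrays were not searched for single outlying values.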

How the results depend on the processing

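Of the 60 member results, 36 were called, and 0 refits of a called one changed its sign. Outside the fits that leave out 1 array, 481 of 540 member refits kept direction and call, and of those fits 1045 of 1080 did. The cause of the changes below was not tested. List counts in this section stand without the shares of all rows called in the same fits. Whether they moved beyond those of all rows was not tested. Each gene had 1 row, so a summary over its other rows gave no value. The labels do not state whether replicate numbers pair the samples. The block for replicate number left 5 calls in the list for the G3BP1 RIP. It ended the calls of BAX in the TIAR RIP (-0.56) and AIFM1 in the G3BP1 RIP (-0.62). In what follows, stress changes are named by their RNA sample.

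With only the compared groups in the fit, the list had 1 call for the G3BP1 RIP, 20 for unstressed G3BP1 minus input, 1 for the TIAR change minus that of input and 7 for the G3BP1 change minus that of input. Calls were lost for BCL2L1 (-0.34) and BAX (-0.58) in unstressed G3BP1 minus input and for AIFM1 in the G3BP1 RIP (-0.62). They were gained for BAX in unstressed TIAR minus input (-0.41) and stressed G3BP1 minus input (0.36). Without the lowest 25% of rows BAX was called in the G3BP1 RIP (0.48) and in unstressed TIAR minus input (-0.41).

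Array weights gave the list 19 calls for the TIAR RIP, 15 for the G3BP1 RIP, 19 for input, 4 for the TIAR change minus that of input and 24 for the TIAR change minus that of G3BP1. They added calls for MDM2 in stressed G3BP1 minus input (-0.35), BAX in input (-0.39), unstressed TIAR minus input (-0.47) and stressed G3BP1 minus input (0.29), and AIFM1 in the TIAR (0.96) and G3BP1 (-0.93) changes minus that of input. They turned the sign of the uncalled BAX unstressed TIAR minus G3BP1 (-0.14) and XAF1 in the G3BP1 RIP (-0.20). Leaving out both arrays that stand apart gave the list 22 calls for the TIAR RIP, 13 for the G3BP1 RIP, 15 for input and 2 for the TIAR change minus that of input. It added calls for MDM2 (-0.35) and BAX (0.27) in stressed G3BP1 minus input, BAX in input (-0.36) and unstressed TIAR minus input (-0.41), XAF1 in the TIAR RIP (-0.60), and AIFM1 in the G3BP1 change minus that of input (-0.97). It turned the uncalled TIAR change minus that of input for MDM2 (-0.029) and BCL2L1 (-0.019), BAX unstressed TIAR minus G3BP1 (-0.087), and XAF1 in the G3BP1 RIP (-0.18) and in its change minus that of input (-0.037).

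Median centring, quantile normalization and cyclic loess are given in that order. The list had 15 calls for the TIAR RIP under the first 2, and 1, 2 and 1 for the TIAR change minus that of input. That uncalled difference turned for MDM2 (-0.021, -0.12 and -0.046) and BCL2L1 (-0.073, -0.19 and -0.082). Calls were gained for MDM2 in stressed G3BP1 minus input (-0.40, -0.67 and -0.59), BAX in the G3BP1 RIP (0.43, 0.40 and 0.42), BCL2L1 in unstressed TIAR minus input (0.29, 0.28 and 0.19), XAF1 in unstressed TIAR minus G3BP1 (0.73, 0.84 and 0.69) and AIFM1 in the G3BP1 change minus that of input (-0.77, -0.99 and -0.91). Quantile normalization and cyclic loess called MDM2 in the G3BP1 RIP (0.21 and 0.22) and BAX in unstressed TIAR minus input (-0.34 and -0.35), and turned XAF1 in stressed TIAR minus G3BP1 (0.13 and 0.063). Median centring called BCL2L1 in stressed TIAR minus input (0.21) and BAX in unstressed TIAR minus G3BP1 (0.35), and ended the call of BCL2L1 in stressed TIAR minus G3BP1 (-0.12). Cyclic loess called AIFM1 in the TIAR change minus that of input (0.78).

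Leaving out 1 array at a time, list calls ranged over 6 to 14 for the TIAR RIP, 3 to 9 for the G3BP1 RIP, 5 to 22 for input, and, for changes, 0 to 2 for TIAR minus input, 7 to 20 for G3BP1 minus input and 8 to 16 for TIAR minus G3BP1. The highest counts for the TIAR RIP and input came without unstressed G3BP1 replicate 3, the lowest for input without unstressed input replicate 1 or 2, and those for the G3BP1 RIP (3 or 4) without any of its stressed arrays. The G3BP1 minus input changes fell to 7 to 10 without 6 arrays, stressed G3BP1 replicate 1 or 2, stressed input replicate 1 or any unstressed input one. The TIAR minus G3BP1 changes fell to 8 or 9 without stressed G3BP1 or stressed TIAR replicate 1 or 2, or unstressed TIAR replicate 1. Member values with a changed call or sign ranged as follows. AIFM1 had -0.093 to 0.14 in input, -0.83 to -0.49 in the G3BP1 RIP and in its change minus that of input, and 0.73 to 1.07 in the TIAR change minus that of input. BAX had -0.52 to -0.36 in input, 0.23 to 0.63 in the G3BP1 RIP and -0.62 to -0.48 in the TIAR RIP. Against input BAX had 0.27 to 0.43 in stressed G3BP1, -0.60 to -0.45 in stressed TIAR and -0.48 to -0.35 in unstressed TIAR, and it had -0.087 to 0.31 in unstressed TIAR minus G3BP1. The TIAR change minus that of input was -0.019 to 0.11 for BCL2L1 and -0.029 to 0.18 for MDM2. MDM2 had 0.42 to 0.53 in unstressed TIAR minus input, and XAF1 -0.18 to 0.39 in the G3BP1 RIP and 0.18 to 0.75 in unstressed TIAR minus G3BP1.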
